A study of Mus musculus with 36 samples.

Results

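The cytosolic ribosomal proteins are the protein parts of the ribosomes that translate nuclear messenger RNAs. Their genes were taken by symbol, as Rpl or Rps followed by a number, with Rplp0, Rplp2 and Rpsa added and the S6 kinases left out. This gave 60 genes, read by 135 probe sets, of 20701 genes and 45101 probe sets on the array. A probe set combines several short probes against the same transcript, and each gene was read from the probe set with the highest mean over all arrays. By symbol, 28 of the 60 genes belong to the small subunit and 32 to the large subunit. The 28 include Rps4l, which RefSeq lists as a transcribed pseudogene. In 55 genes the mean exceeded 5 on the log2 scale in at least 1 stage, the study's limit for expression. Rpl31, Rpl36a, Rpl39l, Rps13 and Rps16 stayed under it at every stage.

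A ribosome consists of a small subunit, which reads the messenger RNA, and a large subunit, which joins amino acids. Most ribosomal proteins are needed in equal numbers, and their messenger RNAs often begin with a run of C and T letters, the 5' terminal oligopyrimidine (TOP) motif, through which their translation follows growth signals carried by mTOR. Some have a paralog that is made in fewer tissues. Rpl3l, a paralog of Rpl3, is known from striated muscle.

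Hearts of OF1 mice, an outbred strain, were measured at 12 stages with 3 arrays each, 36 in all. They covered 10 daily embryonic stages, the first at E10.5 and the last at E19.5, as well as young adult at 10 weeks and old adult at 14 months by the labels, an age that the study's methods give differently. All 3 arrays of E10.5 and of E11.5 came from mixed sexes, and later stages had a female, a male and a mixed array. No animal carried a transgene or received a treatment according to the labels, and the study's methods describe the 3 arrays of a stage as biological replicates from separate pups or pools. The extraction protocol in the labels names liver, whereas 9 cardiomyocyte genes had a mean log2 level between 11.4 and 11.9 at every stage and 7 liver genes one between 3.32 and 4.06. The small number of arrays limits the precision of each mean. In whole hearts, fewer cells of a type and less RNA per cell cannot be told apart.

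The start regions of these genes are shown first, because the TOP motif is the feature by which this family is known. RefSeq promoters of build GRCm38.p6, with 250 letters before and 50 after the annotated start, matched 49 of the 60 genes. A start letter C followed by at least 4 letters C or T was present in 8 of the 49 (16.3%), against 3.01% of 27025 genes with a promoter. The same run within 10 letters of the start on the coding strand was present in 27 (55.1%), against 28.8%. CCGGAAG, a core of GABP binding sites searched on both strands over all 300 letters, was present in 22 (44.9%), against 9.93%. AAGATGGC, a core of YY1 sites, was present in 8.16% against 3.19%, and TATAAA in 14.3% against 15.7%. A gene with several promoters was counted once, and a match of letters is a description and not a binding site. In the windows below, 35 letters before the start and 15 from it on are given 5' to 3' on the gene's strand, and capitals mark the run of C and T that spans the start. The first 4 hold such a run, and the last 3, of genes described below, do not.
Rpl14 (chr9:120571482-120571531, + strand): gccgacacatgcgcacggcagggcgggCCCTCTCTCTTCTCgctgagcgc
Rpl35 (chr2:39005117-39005166, - strand): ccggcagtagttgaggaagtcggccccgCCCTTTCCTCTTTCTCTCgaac
Rps18 (chr17:33955651-33955700, - strand): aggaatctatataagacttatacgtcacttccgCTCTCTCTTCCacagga
Rps6 (chr4:86857353-86857402, - strand): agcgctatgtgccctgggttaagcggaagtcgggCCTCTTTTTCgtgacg
Rpl3l (chr17:24727791-24727840, + strand): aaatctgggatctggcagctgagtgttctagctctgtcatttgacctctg
Rps25 (chr9:44407679-44407728, + strand): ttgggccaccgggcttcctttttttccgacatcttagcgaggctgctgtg
Rplp0 (chr5:115559432-115559481, + strand): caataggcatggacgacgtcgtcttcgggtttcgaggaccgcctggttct

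Most ribosomal protein genes followed a U shape over the 12 stages. The median over the 55 expressed genes of the log2 deviation from each gene's own mean was 0.47 at E10.5 (SD 0.19, n = 3), fell to -0.37 at E15.5 (SD 0.20) and -0.41 at E18.5 (SD 0.24), and stood at 0.24 in young adult (SD 0.11) and 0.29 in old adult hearts (SD 0.18). The lowest stage was E15.5 for 19 of the 55 genes and E18.5 for 14, and the highest was E10.5 for 22 and old adult for 18. The span between the highest and lowest stage mean ran from 0.19 for Rpl38 to 4.98 for Rpl3l. On the probe sets chosen, Rps29 (0.23), Rpsa (0.36) and Rpl13a (0.38) were also among the flattest. Rpsa, a small subunit protein that is also known as a laminin receptor, kept stage means between 12.15 and 12.51.

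**Figure D1:**
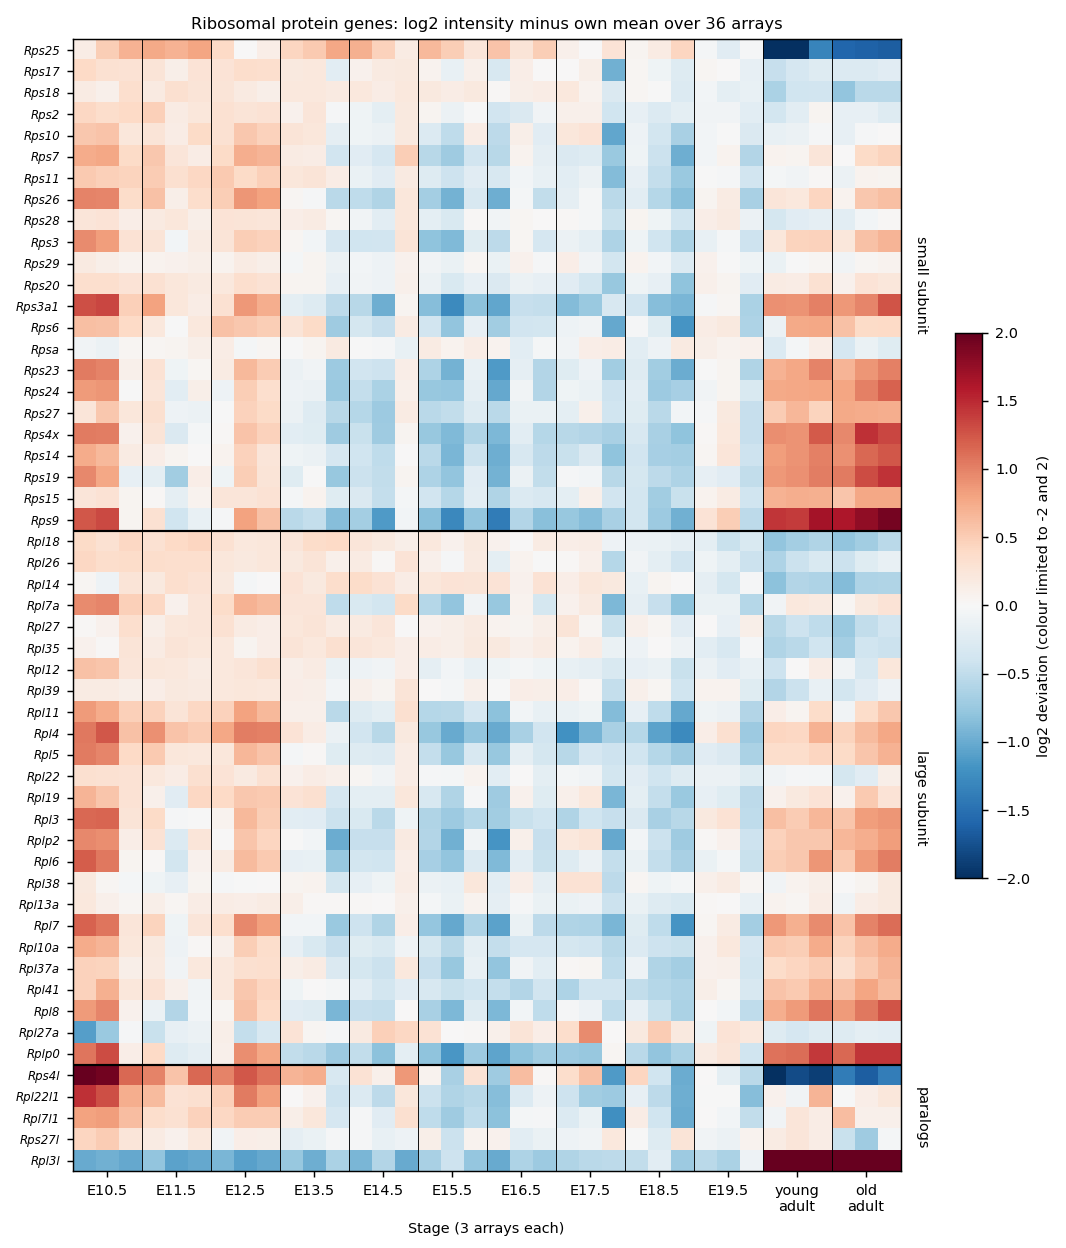
Log2 intensity of 53 ribosomal protein genes minus each gene's own mean over the 36 arrays, with 3 arrays for each of 12 stages across and genes down, in blocks of small subunit, large subunit and paralogs. Most genes are red at E10.5 and in adults and blue around E15.5 to E18.5, whereas Rpl3l is red only in adult hearts and Rps25 and Rps4l are blue there.

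Control probe sets differed between stages too. The 18 hybridization controls, which are added in fixed amounts, had a mean log2 level of 9.90 at E10.5, 10.95 at E15.5, 11.16 at E19.5, 12.17 in the young and 11.37 in the old adult, lowest at E10.5 and highest in the young adult. The difference between the 3' and 5' probe sets of Actb and Gapdh, which grows as RNA or its copy shortens, was 2.83 at E10.5, 4.41 at E15.5, 4.0 at E19.5, 2.33 in the young and 2.60 in the old adult. At E10.5 it was 2.44, 2.28 and 3.76 in the 3 arrays, whose median deviations of the ribosomal protein genes were 0.59, 0.57 and 0.25. E10.5 and both adult stages, which had the smallest 3' to 5' differences, also had high ribosomal protein values. Over the 36 arrays the median deviation had a correlation r of -0.44 with the hybridization controls and -0.69 with the 3' minus 5' difference. With stage means taken out, r was -0.81 and -0.23. The part of either control in the shape was not tested beyond these values and the fits with each control as a covariate given below. Marker levels moved with the stages too: the mean of 7 erythroid genes was 8.65 at E10.5, 3.99 just before birth at E19.5 and 3.91 in the young adult, that of 8 proliferation genes was 7.84, 6.09 and 3.93, and that of 8 leukocyte genes was 3.79, 4.80 and 6.29. The mean of 5 fibroblast genes ran opposite to the ribosomal protein genes, with 8.81 at E10.5, 10.50 at E15.5, 10.62 at E18.5, 10.57 at E19.5, 9.70 in the young and 9.32 in the old adult. That of 5 endothelial genes was lowest at E15.5 too, with 6.41, 5.94, 6.16, 6.65, 7.39 and 8.16 at the same stages. Their part in the results was not tested.

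**Figure D2:**
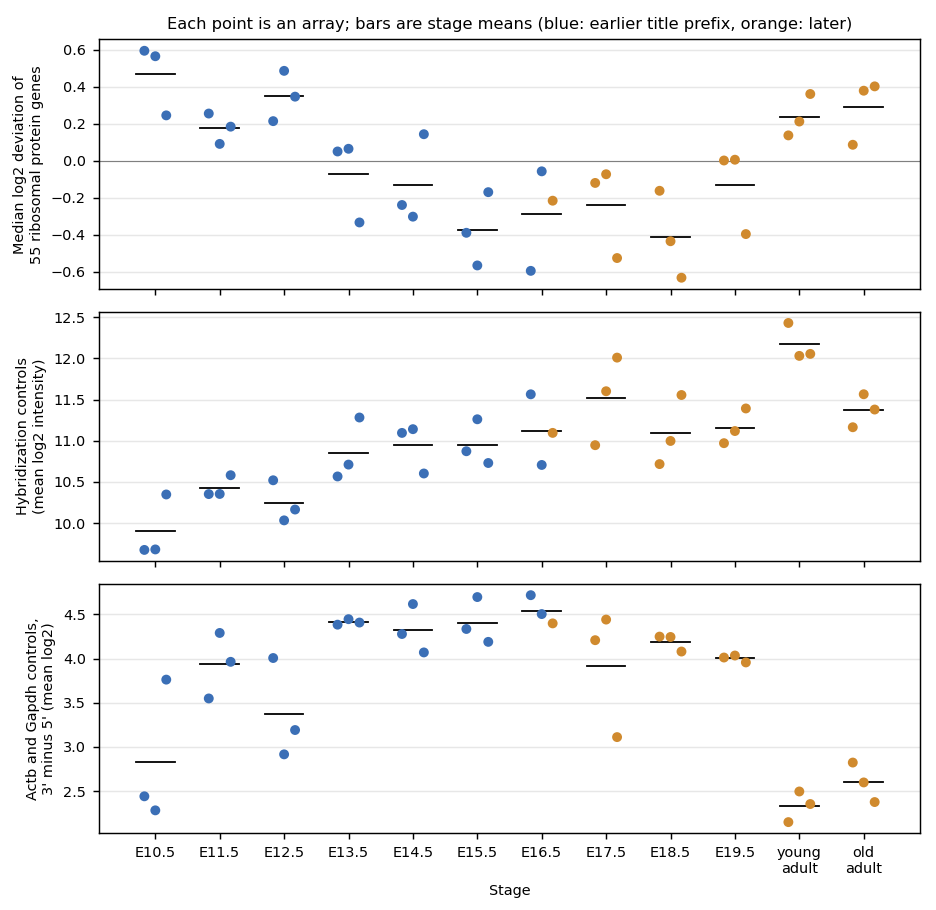
Median log2 deviation of 55 ribosomal protein genes (top), mean log2 level of the hybridization controls (middle) and mean 3' minus 5' log2 difference of the Actb and Gapdh controls (bottom) for each of the 36 arrays by stage, with bars at stage means and colour for the earlier or later prefix of the array titles. The median deviation falls from 0.47 at E10.5 to -0.41 at E18.5 and stands at 0.24 in young adult hearts, while the 3' minus 5' difference is 2.83, 4.19 and 2.33 there.

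From E10.5 to E19.5, the ribosomal protein genes fell. In limma, with all arrays in 1 model and Benjamini-Hochberg adjustment over 45101 probe sets, 39 of the 60 genes were higher at E10.5 than at E19.5 at an adjusted p under 0.05, 3 were lower and 18 passed in neither direction. Of all probe sets, 21.8% were higher and 23.7% lower. The median log2 difference was 0.56 over the 60 genes and -0.15 over all probe sets. Among 651 probe sets with a mean over 10, a level more like that of these genes, 37.2% were higher and the median was 0.20. Both subunits took part, with 18 of 26 expressed small subunit genes and 21 of 29 large subunit genes higher and medians of 0.59 and 0.63. No gene passed the study's own limits, an adjusted p under 1e-05 and a log2 difference over 2, which 1.48% of all probe sets passed as higher and 0.698% as lower, whereas 47 of the 60 genes and 53.4% of all probe sets passed an unadjusted p under 0.05 in either direction.

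Rpl5, which with Rpl11 forms a particle with 5S RNA that holds back Mdm2, read 12.58, 12.53 and 11.95 at E10.5 and 11.32, 11.26 and 10.92 at E19.5. The arrays of the 2 stages did not overlap, and the difference was 1.19 (SE 0.17, adjusted p = 1.8e-06). It held under all 17 alternatives run for it. Rpl11 differed by 0.95 (SE 0.23, adjusted p = 0.0014), with arrays of 11.65, 11.54 and 11.27 against 10.71, 10.68 and 10.22. Rpl22l1, a paralog of Rpl22, read 10.64, 10.46 and 9.90 at E10.5 and 9.16, 9.16 and 8.31 at E19.5, a difference of 1.45 (SE 0.25, adjusted p = 1.8e-05) that lost its call only with the hybridization control level as a covariate. Rps3a1, a small subunit protein, differed by 1.24 (SE 0.25, adjusted p = 0.00015). Rpl27a, a large subunit protein, went the other way by -0.75 (SE 0.20, adjusted p = 0.0036), with arrays of 7.54, 7.91 and 8.63 at E10.5 and 8.56, 8.92 and 8.86 at E19.5, so that the mf3 array of E10.5 lay among those of E19.5.

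Most of the fall lay before E15.5. Against E15.5, 40 of the 60 genes were higher at E10.5 and 1 was lower, where 19.1% and 18.8% of all probe sets passed, with a median of 0.79. Rps3a1 differed most, by 2.02 (SE 0.25), followed by Rps9 at 1.84 (SE 0.29) and Rpl4 at 1.81 (SE 0.23). Between E15.5 and E19.5, 3 genes were higher at E15.5 and 6 lower, where 6.37% and 3.64% of all probe sets passed, with a median of -0.21. Of the intervening stages after E11.5, E12.5 had 24 genes higher than E19.5 (15.8% of all probe sets), E13.5 had 6 (9.80%) and E14.5 had 4 (8.46%). The fall was not steady, as the median deviation was 0.47 at E10.5, 0.18 at E11.5 and 0.35 at E12.5. The 3' minus 5' difference was 2.83, 3.93 and 3.37 at these stages.

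The size of this fall and the number of genes called depended on the scaling and on single arrays. With the hybridization control level as a covariate, 4 of the 60 genes were higher (9.94% of all probe sets) and the median was -0.01, and with the 3' minus 5' difference as a covariate 20 were higher (16.8%) and the median was 0.43. With mf3 as the only E10.5 array, 6 genes were higher (10.9% of all probe sets) and the median was 0.29, so that the genes' share was near that of all probe sets, and without array 3 of E19.5, 26 were higher (18%). With the title prefix as a block, 8 were higher (9.13%), although the median was 0.65. The prefix changed within E16.5, where the male and mixed arrays had the earlier one and the female array the later one. Only the arrays of E16.5 thus set the prefix apart from stage in this fit.

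Between E19.5 and young adult hearts, more of the genes rose than fell on the probe sets chosen, a balance that turned on probe sets without x, s or a in their names, where of 35 genes 7 were lower and 8 higher at E19.5 with a median of 0.10. Of the 60 genes, 21 were lower at E19.5, 7 were higher and 32 passed in neither direction, where 13.6% of all probe sets were lower and 15.5% higher. The median log2 difference, E19.5 minus young adult, was -0.36 over the 60 genes and -0.04 over all probe sets. Among probe sets with a mean over 10, 11.1% were lower and the median was 0.21. Of the expressed genes, 11 of 26 of the small subunit and 10 of 29 of the large subunit were lower. Rpl3l alone passed the study's limits, which 0.634% of all probe sets passed as lower and 0.818% as higher.

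Rps9, a small subunit protein that helps keep decoding accurate, read 9.80, 10.01 and 8.99 at E19.5 and 10.96, 10.93 and 11.19 in young adult hearts, a difference of -1.42 (SE 0.29, adjusted p = 0.00032). Rps19, which is mutated in Diamond-Blackfan anaemia, read 9.51, 9.45 and 9.19 against 10.55, 10.59 and 10.70, a difference of -1.23 (SE 0.25, adjusted p = 0.00028). In neither did the arrays of the 2 stages overlap. Rplp0, the base of the stalk that recruits elongation factors, read 10.12, 10.20 and 9.56 against 11.03, 11.07 and 11.37 and differed by -1.20 (SE 0.25, adjusted p = 0.00038). Rplp2, another stalk protein, differed by -0.62 (SE 0.32) and did not pass, with an adjusted p of 0.15. Rps4x, on the X chromosome, differed by -1.10 (SE 0.23, adjusted p = 0.00047), and Rps15 by -0.76 (SE 0.15, adjusted p = 0.00019).

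A smaller group went the opposite way. Apart from Rps25 and Rps4l, described below, Rpl14, Rpl18, Rpl27, Rpl35 and Rps18 were higher at E19.5, by 0.33 to 0.49. Rpl14 read 12.48 on average at E19.5 (SD 0.16) and 11.99 in young adult hearts (SD 0.13), a difference of 0.49 (SE 0.12, adjusted p = 0.0018). These 5 were read by probe sets whose names end in _x_at, meaning that some probes match other sequences too. Of 21 expressed genes read by a probe set with x or s in its name, 5 were lower and 5 higher with a median of -0.07, and of the other 34, 16 were lower and 2 higher with a median of -0.57. Of 27 genes with several probe sets over a mean of 5, 17 had differences of both signs, and in Rpl13a, Rpl14, Rpl18, Rpl35, Rpl41, Rpl5 and Rps24 probe sets passed in both directions. Rps24, for example, differed by -0.88 on the probe set chosen and by 1.84 on another (adjusted p = 5.9e-06). Rps9 differed by 1.22 (adjusted p = 0.000155) on its probe set without a suffix, whose mean over all arrays was 4.54.

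With the 3' minus 5' difference as a covariate, 2 genes were lower and 2 higher at E19.5, where 5.55% and 7.55% of all probe sets passed, the median was -0.17, and Rps9, Rps19, Rplp0 and Rps4x lost their calls. Centred on the median of probe sets with a mean over 5, 34 were lower and 2 higher, where 22.2% and 10.8% of all probe sets passed. E17.5, whose titles share the prefix of the young adult arrays, had 28 genes lower and 9 higher, where 16% and 18.4% of all probe sets passed.

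**Figure D3:**
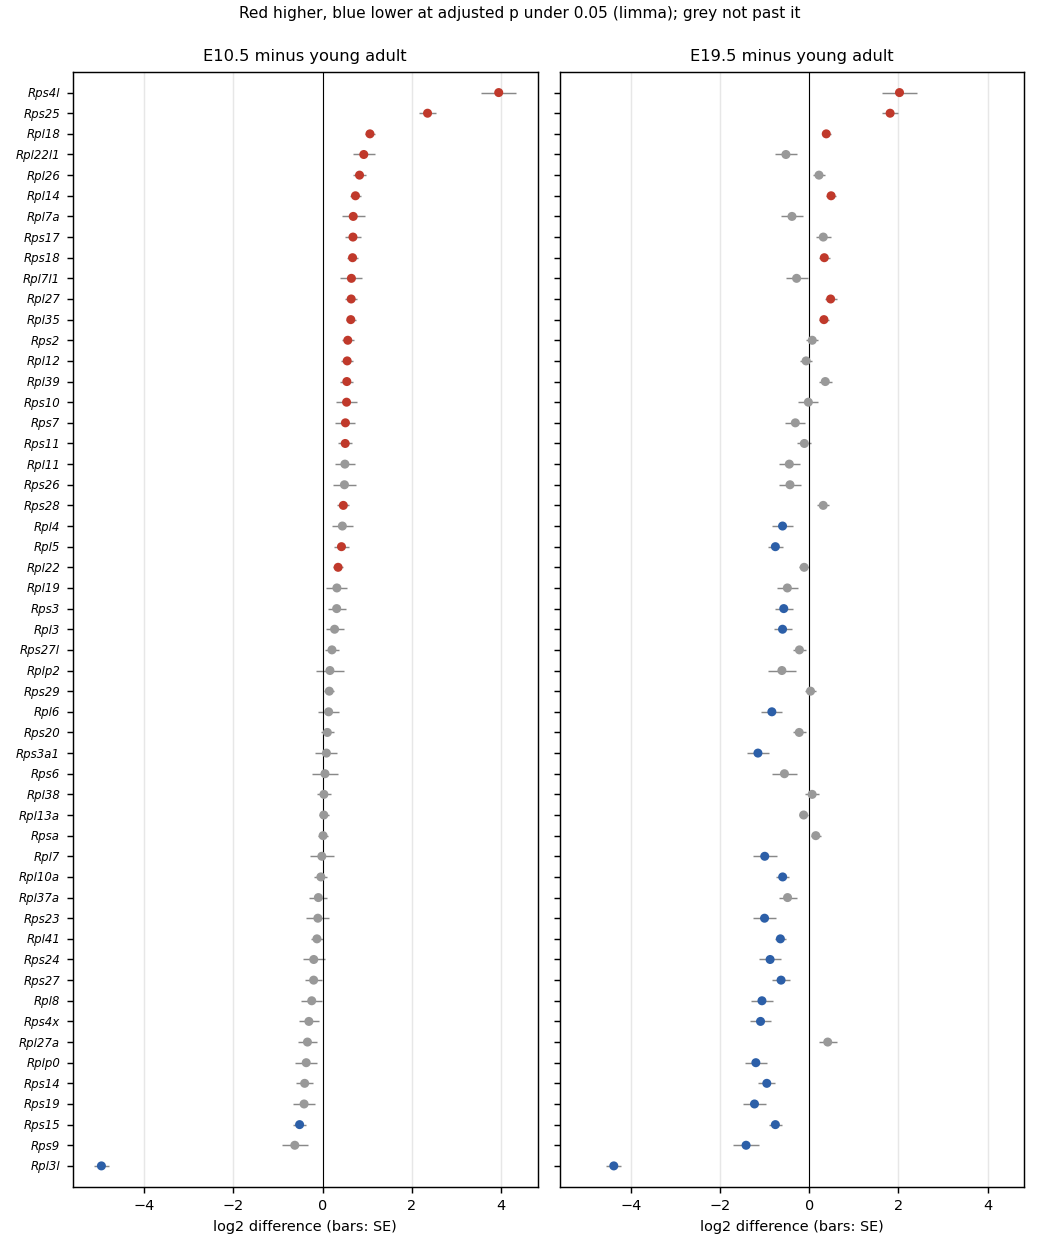
Log2 difference with its SE for 53 ribosomal protein genes, E10.5 minus young adult (left) and E19.5 minus young adult (right), ordered by the left panel, with genes past an adjusted p of 0.05 in limma in red (higher) or blue (lower). Rps4l and Rps25 are highest and Rpl3l lowest in both panels, while most others lie within 1 log2 unit on the left, where the balance of red and blue turns with the scaling, and below 0 on the right.

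Between E10.5 and young adult hearts, the first and the mature stage, differences were mixed. At E10.5 22 of the 60 genes were higher, 4 lower and 34 passed in neither direction, where 27.1% of all probe sets were higher and 35.9% lower. The median difference was 0.16 over the 60 genes, -0.19 over all probe sets and 0.40 over those with a mean over 10, of which 49.2% were higher and 18.3% lower. Rpl18, a large subunit protein, read 11.38, 11.30 and 11.41 at E10.5 and 10.21, 10.31 and 10.38 in young adult hearts, a difference of 1.06 (SE 0.10, adjusted p = 3.4e-10). Rpl26, which is known to bind p53 messenger RNA, differed by 0.83 (SE 0.14, adjusted p = 7.2e-06), with arrays of 13.03, 12.98 and 13.00 against 12.01, 12.19 and 12.33. Rpl22l1 was higher by 0.92 (SE 0.25, adjusted p = 0.0018) and its parent Rpl22 by 0.35 (adjusted p = 0.0096). Rpl22l1 lost this call under 4 of 16 alternatives and turned to -0.70 with the hybridization control level as a covariate, and Rpl22 lost it under 8 of 17 and turned under 2 of them, among them centring (-0.18). Rps15 was lower by -0.52 (SE 0.15, adjusted p = 0.0039), and Rpl39l, a paralog of Rpl39 known from testis, by -0.77 (adjusted p = 0.00025) at levels under 5. On its other probe set Rpl26 differed by 0.09 (limma, adjusted p = 0.70). Rps6, the target of the S6 kinases, read 6.96, 6.94 and 6.75 against 6.25, 7.11 and 7.13. Rpl13a, a large subunit protein, differed by 0.03 (SE 0.11) on the probe set chosen. Its other probe sets differed by -0.39 (limma, adjusted p = 0.11), 0.62 (adjusted p = 0.00044) and 2.39 (adjusted p = 4.8e-16). Rpl36a, on the X chromosome, differed by -0.44 (adjusted p = 0.0045) and Rps13 by 0.66 (adjusted p = 0.0030), both at levels under 5. Rpl39, also on the X chromosome, was higher by 0.54 (SE 0.14, adjusted p = 0.0017), a call lost under 7 of 17 alternatives and turned under 2 of them, among them the hybridization control level as a covariate (-0.23).

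This balance turned with the scaling. Centred on the median of probe sets with a mean over 5, 4 genes were higher and 27 lower with a median of -0.37, where 16.4% and 63.8% of all probe sets passed, a step that moved the median of all probe sets from -0.19 to -0.71 and the share of higher among all called probe sets from 43.0% to 20.5%. With the hybridization control level as a covariate, 4 were higher and 30 lower, where 12.9% and 11.4% of all probe sets passed, and after quantile renormalization 16 and 10 with a median of 0.05, where 24.4% and 26.6% passed.

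Rpl3l, Rps25 and Rps4l were the 3 genes past the study's limits between E10.5 and young adult hearts, which 4.43% of all probe sets passed as higher and 2.1% as lower, and each kept its direction against young adult under all 17 alternatives run for either comparison. Rpl3l, the muscle paralog of Rpl3, on chromosome 17, read 2.23, 2.29 and 2.22 at E10.5, 2.60, 2.83 and 2.47 at E15.5 and 2.70, 2.62 and 3.15 at E19.5. In young adult hearts it read 6.89, 7.29 and 7.46, and in old adult hearts 7.07, 6.58 and 6.55. All 6 adult arrays thus lay above all 30 embryonic ones. The difference from young adult was -4.96 at E10.5 (SE 0.17, adjusted p = 6.3e-21), a 31.2-fold lower intensity, and -4.39 at E19.5 (SE 0.17, adjusted p = 8.4e-19), or 21-fold. Embryonic levels lay under the limit for expression, so that these folds depend on the background of the probe set. Under the 17 alternatives for each comparison both calls held, with differences between -5.49 and -4.84 and between -4.68 and -4.26.

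Rpl3 itself followed the U shape, with 12.18, 12.19 and 11.29 at E10.5, 10.42, 10.29 and 10.44 at E15.5, 11.21, 11.31 and 10.51 at E19.5 and 11.62, 11.53 and 11.69 in young adult hearts. E19.5 minus young adult was -0.60 for Rpl3 (SE 0.20, adjusted p = 0.023). This call was lost under 6 of 16 alternatives, among them the 3' minus 5' difference as a covariate (0.11) and leaving out E19.5 array 3 or young adult array 1 or 3.

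Rps25, a small subunit protein that internal ribosome entry sites are known to need, was read by 1 probe set, on chromosome 9. It read 7.60, 7.93 and 8.13 at E10.5, 7.40, 7.21 and 7.42 at E19.5, 5.12, 5.34 and 6.13 in young adult and 5.86, 5.82 and 5.80 in old adult hearts. The adult arrays lay below all embryonic ones. The difference from young adult was 2.36 at E10.5 (SE 0.19, adjusted p = 2.9e-12) and 1.81 at E19.5 (SE 0.19, adjusted p = 4.0e-09), and both calls held under all 17 alternatives. Rps4l, which RefSeq lists as a transcribed pseudogene on chromosome 6, read 9.47, 9.4 and 8.63 at E10.5, 7.47, 7.28 and 6.94 at E19.5 and 4.36, 5.68 and 5.58 in young adult hearts. Its differences were 3.95 (SE 0.40, adjusted p = 6.8e-10) and 2.02 (SE 0.40, adjusted p = 0.00019), and they fell to 0.82 and 0.63 and lost their calls with the hybridization control level as a covariate. Rps4l and Rps4x are near copies, so the level read for Rps4l is uncertain. All 6 adult arrays of Rps4l lay below all 30 embryonic ones, of which the lowest read 6.34.

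**Figure D4:**
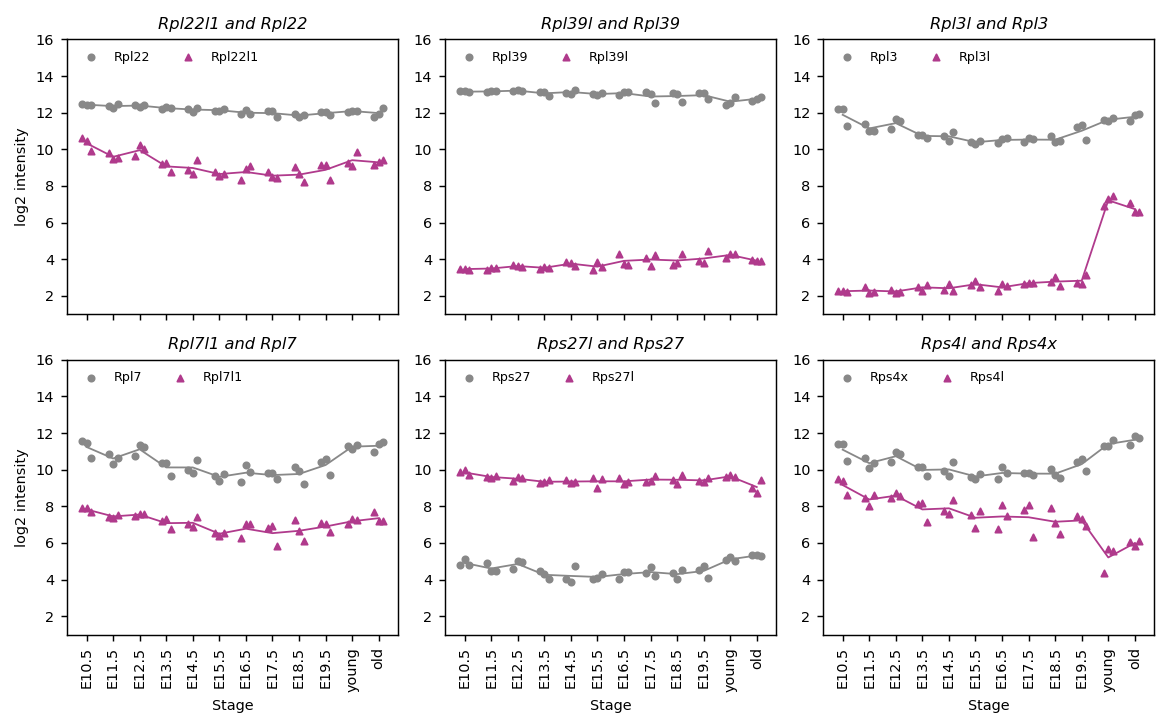
Log2 intensity of 6 paralogs (triangles) and their parents (circles) in each of the 36 arrays by stage, with lines through stage means. Rpl3l rises from 2.82 at E19.5 to 7.21 in young adult hearts while Rpl3 goes from 11.01 to 11.61, and Rps4l falls from 7.23 to 5.21 while Rps4x goes from 10.31 to 11.40 (the level of 1 probe set is not comparable with that of another).

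The distance between a paralog and its parent was also taken within each array. A shift of the whole array cancels in it, while an effect on one probe set alone does not, and no alternative with a covariate was run for it. Rpl3l and Rps27 lay under the limit for expression at every embryonic stage and Rpl39l at all stages, so that the sizes of these 3 distances depend on the background of those probe sets. At E10.5 the 3 arrays of Rpl3l had an SD of 0.03, whereas Rpl3l minus Rpl3 had one of 0.50. Over 6 adult against 30 embryonic arrays, Rpl3l minus Rpl3 was higher by 3.66 (two-sided permutation test, adjusted p = 2e-05 over 6 pairs), and Rps4l minus Rps4x fell by 3.61 (permutation, adjusted p = 2e-05). Rps27l minus Rps27 fell by 0.89 (permutation, adjusted p = 2e-05) and Rpl7l1 minus Rpl7 by 0.81 (permutation, adjusted p = 4.5e-05), and Rpl39l minus Rpl39 was higher by 0.72 (permutation, adjusted p = 0.000876). Rpl22l1 minus Rpl22 was higher by 0.33 without passing (permutation, adjusted p = 0.13). The smallest p that 100000 resamples give is 1e-05, and arrays of 10 embryonic stages were pooled. With the mean of all probe sets of each gene, Rps27l minus Rps27 differed by -0.30 and no longer passed, Rpl39l minus Rpl39 by 0.43 (permutation, adjusted p = 0.0155), and Rpl22l1 minus Rpl22 turned to -0.14. Rpl7l1 and Rps27l are paralogs of a large and a small subunit protein, and Rps27l is also a p53 target.

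Between young and old adult hearts, few of these genes passed. 1 gene, Rps27l, was lower in old adult hearts and none was higher, where 3.13% and 3.83% of all probe sets passed in limma. At an unadjusted p under 0.05, 2 were lower and 1 higher, where 11.5% and 11.6% of all probe sets passed. Rps27l read 9.61, 9.70 and 9.6 in young adult and 9.0, 8.74 and 9.42 in old adult hearts without overlap, a difference of -0.58 (SE 0.15, adjusted p = 0.018) that lost its call under 7 of 16 alternatives, among them the mean of all its probe sets (-0.14) and leaving out old adult array 1 or 2 or young adult array 2. The median difference was 0.08. High differences were Rps4l at 0.79 (SE 0.40, adjusted p = 0.23), Rps13 at 0.42, Rps19 at 0.33 and Rps25 at 0.30, and the lowest after Rps27l were Rpl3l at -0.48 (SE 0.17, adjusted p = 0.079), Rpl39l at -0.31, Rpl36a at -0.22 and Rpsa at -0.18.

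No ribosomal protein gene passed an adjusted p under 0.05 between males and females. Over 9 pairs of a male and a female array with stage as a block in limma, 0 of the 60 genes passed, as did 0.0244% of all probe sets in each direction. At an unadjusted p under 0.05, 13 genes were lower in males and 0 higher, where 7.80% of all probe sets passed in either direction. Differences, male minus female, ran from -0.40 for Rps4l to 0.11, with a median of -0.12. Without the block 0 genes were under an unadjusted 0.05 (2.19% of all probe sets), with the E12.5 pair 2 (5.07%), and after centring 4 (7.72%). Of the X chromosome genes, Rps4x, which escapes X inactivation in humans, differed by -0.18 (SE 0.08, adjusted p = 0.62).

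Genes that make and run ribosomes were read from lists, here and in the next paragraphs. Of all probe sets, 21.8% were higher and 23.7% lower at E10.5 than at E19.5. Against young adult, 27.1% were higher and 35.9% lower at E10.5, and 15.5% and 13.6% at E19.5. Of 67 ribosome biogenesis factors, 50 were higher at E10.5 than at E19.5 and 4 lower, and 52 were higher at E10.5 than in young adult hearts and 3 lower, with medians of 0.84 and 1.25. Between E19.5 and young adult, 23 were still higher at E19.5 and 3 lower. Ltv1, a small subunit export factor, had means of 8.31, 7.07, 6.89, 5.76 and 5.82 at E10.5, E15.5, E19.5, young and old adult, and E10.5 exceeded young adult by 2.56 (SE 0.15, adjusted p = 3.1e-15). Pno1, which helps cut the small subunit RNA, exceeded it by 2.63 (SE 0.35, adjusted p = 1.8e-07). Nol6 and Rpf2, nucleolar assembly factors, were lower, by -1.0 and -0.48. Of 14 genes of RNA polymerase I, which transcribes ribosomal RNA, 7 were higher at E10.5 than in young adult hearts and 2 lower. Rrn3, its growth-regulated initiation factor, was higher by 1.88 (SE 0.31, adjusted p = 6.2e-06) and Twistnb, a subunit, by 1.09. Polr1a, the largest subunit, and Taf1c were both lower, by -0.64.

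Of 8 elongation factors, 7 were higher and 1 lower at E10.5 than at E19.5. Eef1a2, Eef1b2 and Eef1d were lower at E19.5 than in young adult hearts and the other 5 did not pass. Eef1b2, the exchange factor of eEF1A, had means of 10.96, 9.52, 9.62, 10.47 and 10.56 at E10.5, E15.5, E19.5, young and old adult. Eef1a1, the widely used form of eEF1A, went from 12.86 at E10.5 to 11.82 at E15.5 and 12.13 in young adult hearts, while Eef1a2, the form of adult muscle, went from 7.27 to 8.11 and 8.84. E10.5 minus young adult was 0.73 (SE 0.20, adjusted p = 0.0022) for Eef1a1 and -1.57 (SE 0.19, adjusted p = 2.3e-08) for Eef1a2. Eef1g (0.91) and Eif5a (0.86) were higher at E10.5, Eif5a2, a paralog of Eif5a, was higher by 2.30 (SE 0.30, adjusted p = 7.9e-08), and Eef2 (0.04) and Eef1d (-0.25) did not pass.

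Of 30 initiation factors, 21 were higher at E10.5 than in young adult hearts and the other 9 did not pass, with a median of 0.87. Eif2s1, the regulated subunit of eIF2, was higher by 2.09 (SE 0.27, adjusted p = 1.1e-07) and Eif1ax by 1.87. Eif1 (-0.50) and Eif6 (-0.32) did not pass. Between E19.5 and young adult, 7 (23.3%) were higher and 5 (16.7%) lower, against 15.5% and 13.6% of all probe sets. Of 19 regulators of mTOR and of TOP messenger RNAs, 12 were higher at E10.5 than in young adult hearts and 2 lower. Deptor, an inhibitor bound to mTOR, was lower by -2.46 (SE 0.22, adjusted p = 4.8e-11) and Eef2k, the kinase that slows elongation, by -0.99. Eif4ebp2, a repressor of eIF4E, was higher by 1.70 and Tia1, which binds TOP messenger RNAs under stress, by 1.69. Of the 76 mitochondrial ribosomal proteins, which serve the separate ribosomes of mitochondria, 36 were higher at E10.5 than in young adult hearts and 7 lower. At E19.5, 9 (11.8%) were higher and 13 (17.1%) lower, near the 15.5% and 13.6% of all probe sets. Mrps22 and Mrps5 were higher at E10.5 by 1.99 and 1.98, and Mrpl52 and Mrps12 lower by -1.65 and -1.37. Fau and Gnb2l1, ribosomal proteins outside the symbol rule, did not pass between E10.5 and young adult, with differences of -0.21 and 0.09. After centring, 25 mitochondrial genes were lower and 22 higher at E10.5 than in young adult hearts, and 1 elongation factor was higher and 3 lower. Of all probe sets, 63.8% were then lower and 16.4% higher.

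**Figure D5:**
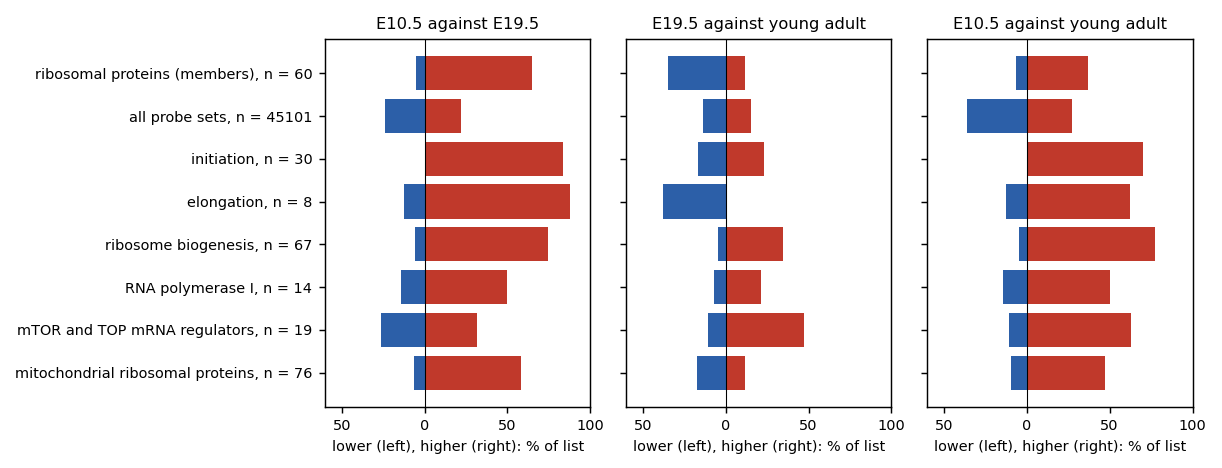
Share of each list called higher (right, red) or lower (left, blue) at an adjusted p under 0.05 in limma, in 3 comparisons, for the 60 ribosomal protein genes, all probe sets and 6 lists of other translation genes. At E10.5 against E19.5, 65% of ribosomal protein genes and 74.6% of biogenesis factors were higher, and at E19.5 against young adult 35% and 4.48% were lower, shares that move with the scaling.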

How the data were processed

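Log2 expression values of 36 Affymetrix mouse genome arrays were used as deposited. The authors made these log2 values by RMA, which subtracts background, equalises distributions between arrays and summarises probes. The submitters' processing notes name Affymetrix Expression Console and Partek 6.6. This makes each value relative to its array, so that a shift of most genes in absolute amount cannot be read from them. The summarised values still differed between arrays. The median of probe sets with a mean over 5 was lowest in young adult array 2 (6.11) and highest in E10.5 array 2 (6.74). Depth does not apply to arrays, and 3 arrays per stage limit the precision.

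All 36 arrays entered 1 limma model (limma 3.58.1, R 4.3.3) with 12 stage means, and p-values were adjusted by Benjamini-Hochberg over 45101 probe sets (prior df 6.96). A call is an adjusted p under 0.05. The study's limits are an adjusted p under 1e-05, a log2 difference over 2 and a stage mean over 5. The sexes were compared over 9 stage pairs. Paralog differences were compared by permutation with 100000 resamples. The fit was tested on simulated data for E10.5 against young adult. It recovered 16.4% of 67 changes of 0.5 log2, 71.6% of 67 changes of 1 and 97% of 66 changes of 2. Far more probe sets passed in the data, 27.1% as higher and 35.9% as lower, than were changed in the simulation. The adjusted p limit was thus stricter in the simulation, and these recovered shares do not give the recovery in the data. A gene that did not pass can still differ by a smaller amount.

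The members and lists were chosen with earlier results of these data known. The rule for named genes took each paralog and its parent, the 5 highest and 5 lowest differences against young adult at E10.5, E19.5 and old adult, the stalk proteins, Rpsa, X chromosome genes, Rps19, Rpl5, Rpl11, Rpl13a and Rps6, all elongation factors, and the 2 highest and 2 lowest of each other list. Other genes named, such as Rps3a1, Rpl4 and Rps24, were chosen after their values were seen. From the female array of E16.5 on, the array titles carry another prefix, which is not stated to be a batch. Alternatives covered scaling, filter, block, covariates, probe set choice and each array left out. MicroRNA arrays were not analysed here. Some single genes are not reported here, although they count in the totals.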

Additional observations from a re-analysis of the deposited data

How the results depend on the processing

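The 3' minus 5' difference as a covariate, mf3 as the only E10.5 array and the paralog distances between old and young adult alone were chosen after seeing the data. Of 865 values of single genes, 633 kept direction and call, 210 kept direction but lost the call and 22 turned. Same-numbered sex labels did not pair the arrays (median r 0.05 over 135 pairs, against -0.02 over 270 others). With the sex label as a replicate block, 7 genes were higher and 20 lower at E19.5 than in young adult hearts and 1 was lower in old adult hearts. Unless a value shows it, the cause of a change was not tested.

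For E10.5 against young adult (22 higher, 4 lower, 3 past the study's limits, median 0.16), centring gave 4, 27 and a median of -0.37. The hybridization covariate gave 4, 30 and -0.72, the title prefix block 10 and 2, mf3 alone 11 and 10, and the log2 limit of 1 gave 3 and 1. Quantile renormalization gave 16 and 10 with a median of 0.05, and the expression filter 2 lower. With only the 6 arrays, 1 passed the study's limits, and with probe sets without x, s or a in their names 8 did. Leaving out 1 array gave 17 to 27 higher, 4 to 7 lower and medians of 0.11 to 0.36.

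For E19.5 against young adult (7 higher, 21 lower, 1 past the study's limits, median -0.36), centring gave 2, 34 and -0.55. The 3' minus 5' covariate gave 2, 2 and -0.17, where 7.55% and 5.55% of all probe sets passed. The hybridization covariate gave 35 lower (14.4% of all probe sets), 4 past the study's limits and -0.97. The log2 limit of 1 gave 2 and 10, where 2670 and 1664 of 45101 probe sets passed. With only the 6 arrays 2 were higher (5208 of 45101 probe sets), and with the mean of all probe sets 4 (6996). Probe sets without x, s or a turned the balance, with 8 higher, 7 lower, 2 past the study's limits and a median of 0.10 over 35 genes. Leaving out 1 array gave 5 to 9 higher, 16 to 22 lower and 1 to 2 past the study's limits, with medians of -0.45 to -0.26. Within 1 prefix, E17.5 against young adult had 9 higher and 28 lower.

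For E10.5 against E19.5 (39 higher, 3 lower, median 0.56), centring gave 19, 8 and 0.22, where 14.6% and 55.6% of all probe sets passed. The hybridization covariate gave 4, 1 and -0.010 (9.94% and 8.31% of all probe sets). The 3' minus 5' covariate gave 20 and 1 (16.8% and 13.6%). The title prefix block gave 8, 1 and a median of 0.65 (9.13% and 5.33%). With mf3 alone the median was 0.29. The log2 limit of 1 gave 6 and 0, where 4762 and 1865 of 45101 probe sets passed. Quantile renormalization gave 24 higher (18.4% of all probe sets) and 0.35, and probe sets without x, s or a 17 and 5. Leaving out 1 array gave 26 to 38 higher, 1 to 3 lower and medians of 0.48 to 0.66. Within 1 prefix, E10.5 against E15.5 had 40 higher and 1 lower.

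For old against young adult (0 higher, 1 lower, median 0.08), centring gave 2 lower, quantile renormalization 2, and the hybridization covariate 4 with a median of -0.25. Of all probe sets, 4.61%, 3.75% and 2.56% were lower in these fits, in that order. The log2 limit of 1, only the 6 arrays, the mean of all probe sets and probe sets without x, s or a gave 0 lower, the last with 2 higher. Leaving out 1 array gave 0 to 2 higher, 0 to 2 lower and medians of 0.01 to 0.13. After centring, the share of higher among all called probe sets went from 53.4% to 32.8% for E19.5 against young adult, from 47.9% to 20.8% for E10.5 against E19.5 and from 55% to 31.1% for old against young adult.

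After centring, E10.5 against young adult had 1 elongation factor higher and 3 lower, 3 initiation factors lower, 6 mTOR and TOP regulators higher and 5 lower, 8 biogenesis factors lower, 3 polymerase I genes higher and 4 lower, 22 mitochondrial genes higher and 25 lower, and 3 outside the rule lower. E19.5 against young adult had 5 elongation factors lower, 4 initiation factors higher and 10 lower, 4 mTOR and TOP regulators lower, 13 biogenesis factors higher and 7 lower, 3 polymerase I genes lower, 24 mitochondrial genes lower and 3 outside the rule lower. Of all probe sets after centring, 16.4% were higher and 63.8% lower for E10.5 against young adult. For E19.5 against young adult these shares were 10.8% and 22.2%.

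Between paralog and parent, the mean of all probe sets gave -0.14 for Rpl22l1 and -0.30 for Rps27l, and 0.43 for Rpl39l in place of 0.72. With E19.5 and young adult alone, an exact test of 3 against 3 cannot go below 0.1. The changes were 0.55 for Rpl39l, 3.79 for Rpl3l, -0.72 for Rpl7l1, -0.41 for Rps27l and -3.12 for Rps4l. The exact test gave p = 0.1 for Rpl3l, Rpl7l1 and Rps4l and p = 0.2 for Rpl39l and Rps27l.

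Turned values of single genes, E10.5 minus young adult, were -0.18 for Rpl22 and -0.10 for Rpl5 after centring. With the hybridization covariate they were -0.70 for Rpl22l1, -0.23 for Rpl39, -0.54 for Rpl5 and -1.14 for Rpl7l1, and with probe sets without x, s or a -0.028 for Rpl22 and -0.15 for Rpl39. For E19.5 minus young adult, the mean of all probe sets gave -0.40 for Rpl18 and 0.23 for Rpl5. Probe sets without x, s or a gave -0.013 for Rpl27, 0.66 for Rpl5 and 1.22 for Rps9, and the 3' minus 5' covariate 0.11 for Rpl3 and 0.017 for Rplp0. For E10.5 minus E19.5, the hybridization covariate gave -0.067 for Rpl7, -0.058 for Rpl7l1, -0.58 for Rplp2, -0.062 for Rps19 and -0.20 for Rps9. The 3' minus 5' covariate gave -0.022 for Rplp0, and mf3 alone -0.019 for Rps9.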
